A study of Mus musculus with 32 samples.

Results

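RNA sequencing of primary sternal chondrocytes from Ldha f/f pups was compared after infection with adenovirus carrying Cre and eGFP (adeno-cre) or eGFP alone (adeno-GFP), in both cases without IL-1b. The comparison held 4 of the 32 libraries of the series, chosen by genotype, virus and the absence of IL-1b, with 2 libraries per virus. All 4 came from cells of C57BL/6 pups with floxed Ldha alleles, infected for 24 h and then cultured for a further 24 h, so the controls also carried the floxed alleles, an adenovirus and eGFP. The other 28 libraries covered wild-type chondrocytes with or without the LDHA inhibitor FX11, chondrocytes of Nfkbiz f/f and Nampt f/f pups with the same viruses, and the same cells with IL-1b. Cre came from a virus and not from a cell type-specific promoter, so any infected cell of the culture could recombine. The labels name no separate cultures or animals, and the p-values therefore measure the spread between these libraries, which may be technical. Within Ldha f/f cells, loss of Ldha and receipt of the Cre virus cannot be told apart, and the same 2 viruses in Nampt f/f and Nfkbiz f/f cells, 2 libraries for each virus and line, were the means of setting them side by side.

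LDHA, the main muscle-type subunit of lactate dehydrogenase, reduces pyruvate to lactate and returns NADH to NAD+, which keeps glycolysis running. LDHB, the heart-type subunit, forms mixed tetramers with LDHA, and the monocarboxylate transporters MCT1 (Slc16a1) and MCT4 (Slc16a3) move lactate across the plasma membrane. Chondrocytes live in a tissue without blood vessels and draw much of their ATP from glycolysis, and they make a matrix of type II collagen and aggrecan.

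The 2 adeno-GFP libraries held 35823279 and 25772657 counts and the 2 adeno-cre libraries 32143768 and 21589014, and the first of each pair belonged to the first of 2 library sets. The sets are the 2 separate numberings of the sample titles, and what they stand for is not given in the sources used here. Tests used edgeR's quasi-likelihood method over the 8 Ldha f/f libraries with the set as a block, and values are TMM-normalized counts scaled to library size (CPM). Of 15880 genes tested, 1994 were called at an adjusted p of 0.05 or less, which is 12.6%. They split into 1028 genes higher with Cre (6.47% of those tested) and 966 lower (6.08%). The higher genes moved further, with a median change of 1.47-fold against 1.27-fold, and 280 of them changed at least 2-fold against 55 of the lower genes. Without the block 877 genes were called, all of them among the 1994, and without the set 1 adeno-cre library 807 were called. The strand used in counting is not given in the sources used here, so genes that overlap a gene on the opposite strand (Abhd2, Acaca, Adm, Axin2, Bcas1, Car9, Ccl2, Ccnd1, Ccnd2, Col10a1, Cxcl16, Cyfip2, Dhx58, Emb, Gclm, Gys1, Hapln1, Herpud1, Hif1a, Hk2, Hspa1a, Htra2, Irf7, Matn4, Ndufa4l2, Nmnat2, Pcx, Pfkp, Ppp1r15a, Psat1, Runx2, Slc2a1, Slc7a5, Sox5, Sox6, Timp3, Trp63 and Zan) may include reads of that gene.

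Ldha (ENSMUSG00000063229, chromosome 7, 46841475 to 46855627 on the forward strand) was measured first, as the check of the labels. Levels of Ldha were 947 and 898 CPM in the GFP libraries and 120.1 and 114 CPM in the Cre libraries. Both Cre libraries lay far below both GFP libraries, with a log2 fold change of -2.98 (SE 0.0606, edgeR adjusted p = 3.25e-15), or 7.89-fold lower. In Nampt f/f cells the same viruses gave a log2 fold change of 0.11 for Ldha (edgeR adjusted p = 0.365) and in Nfkbiz f/f cells 0.10 (edgeR adjusted p = 0.760), each from 1 fit over the 12 libraries of the 3 lines without IL-1b. In bulk RNA, fewer cells with a transcript and less of it per cell cannot be told apart. Nampt and Nfkbiz, the genes floxed in the other lines, had log2 fold changes of -0.08 and 0.08 in Ldha f/f cells, with edgeR adjusted p-values of 0.509 and 0.632.

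Processed pseudogenes of Ldha, copies without introns elsewhere in the genome, moved with it. Ldha-ps2 lies at chromosome 4, 119334389 to 119335445 on the reverse strand, and Gm13549 at chromosome 2, 59398986 to 59399781 on the reverse strand. Ldha-ps2 measured 2.72 and 3.13 CPM in GFP libraries and 0.212 and 0.185 CPM in Cre libraries. Both Cre libraries lay below both GFP libraries, with a log2 fold change of -3.82 (SE 0.414, edgeR adjusted p = 7.30e-06). Gm13549, a further copy, held 16 and 50 counts in the GFP libraries and 0 in both Cre libraries, which is at least 19.2-fold lower per total count of the libraries when 3 counts over the group are taken as the floor. Their sequences are shown because reads of the parent gene can align to them. A stretch of 100 coding bases of Ldha transcript Ldha-202, positions 610 to 709 of 996, is set above the matching stretches of the copies (bases 607 to 706 of the Ldha-ps2 transcript and 422 to 521 of Gm13549, GENCODE M21 on GRCm38), with the bases that differ from Ldha in capitals.
Ldha: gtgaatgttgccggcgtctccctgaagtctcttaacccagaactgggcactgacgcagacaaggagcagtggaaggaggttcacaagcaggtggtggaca
Ldha-ps2: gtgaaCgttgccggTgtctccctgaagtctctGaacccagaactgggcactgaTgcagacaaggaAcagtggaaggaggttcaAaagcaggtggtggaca
Gm13549: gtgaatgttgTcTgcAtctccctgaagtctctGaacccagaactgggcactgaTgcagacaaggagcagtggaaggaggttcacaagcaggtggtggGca
Each copy differed from Ldha at 6 of these 100 bases. The longest run identical to Ldha was 107 bases in Ldha-ps2 and 73 bases in Gm13549, and the authors counted only reads with a unique alignment. How much of the pseudogenes' counts came from the parent transcript was not tested.

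The partner subunit and the lactate transporters changed by small amounts. Ldhb was at 38.6 and 40.5 CPM with GFP virus and at 47.9 and 46.5 CPM with Cre virus. The GFP and Cre libraries did not overlap, with a log2 fold change of 0.26 (SE 0.0771, edgeR adjusted p = 0.0353), but the call was lost when any of the 4 libraries was left out (adjusted p from 0.0601 to 0.300), without the block (0.102), with DESeq2 (0.101) and without the filter on low counts (0.0505). Levels per kilobase used the gene length given with the counts, 2982 bases for Ldha and 1570 for Ldhb, which need not be that of 1 transcript. On this scale Ldha was at 318 and 301 CPM per kb with GFP and 40.3 and 38.1 with Cre. Ldhb was at 24.6 and 25.8 with GFP and 30.5 and 29.6 with Cre, so that Ldha stayed above Ldhb in both Cre libraries. Levels of Slc16a3 were 83.1 and 88.3 CPM in the GFP libraries and 109 and 111 CPM in the Cre libraries. The MCT4 transcript was higher in both Cre libraries, with a log2 fold change of 0.36 (SE 0.0559, edgeR adjusted p = 0.000273). Slc16a1 measured 149.7 and 169 CPM in GFP libraries and 133 and 143 CPM in Cre libraries. The MCT1 transcript missed the threshold, with a log2 fold change of -0.20 (SE 0.0649, edgeR adjusted p = 0.0511), and passed it under 4 alternatives, with log2 fold changes from -0.21 to -0.19. Emb, which encodes embigin, a chaperone of monocarboxylate transporters, fell by 0.27 on the log2 scale (edgeR adjusted p = 0.00534). The transcript of basigin (Bsg), the other chaperone, had a log2 fold change of -0.09 (edgeR adjusted p = 0.350).

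**Figure D1:**
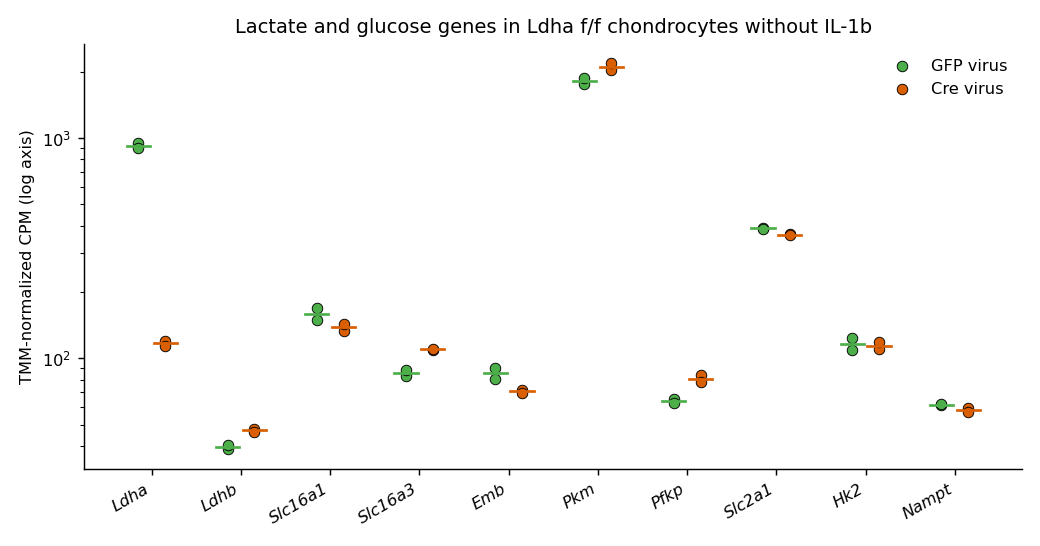
TMM-normalized CPM on a log axis for 10 genes, mostly of lactate and glucose handling, in the 4 Ldha f/f libraries without IL-1b. Each point is 1 library and each line the mean of 2. Ldha drops from 898 and 947 CPM with GFP virus to 114 and 120.1 with Cre virus, while Ldhb, Slc16a3, Pkm and Pfkp sit slightly higher, Slc2a1 sits slightly lower and Hk2 overlaps.

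Most genes of lactate, pyruvate and glucose use were not called. Among 20 tested genes of lactate dehydrogenase, lactate transport and the pyruvate dehydrogenase complex with its kinases and phosphatases, 3 were higher and 3 lower, with a median log2 fold change of -0.10 against -0.02 over all genes tested, of which 12.6% were called. The 3 lower genes include Ldha itself, the floxed gene, whose fall is part of the design. The pyruvate dehydrogenase kinase gene Pdk4 had a log2 fold change of 0.71 (edgeR adjusted p = 0.0537). Among 14 glycolytic enzymes 3 were higher and 1 lower, with a median of 0.08, where 6.47% of all genes were higher and 6.08% lower. Pkm was at 1764 and 1882 CPM with GFP virus and at 2036 and 2183 CPM with Cre virus. Pyruvate kinase, the enzyme just before lactate dehydrogenase, was higher with Cre within each set, with a log2 fold change of 0.21 (SE 0.0498, edgeR adjusted p = 0.00855). Levels of Pfkp were 65.5 and 62.5 CPM in the GFP libraries and 84.0 and 77.7 CPM in the Cre libraries. The platelet-type phosphofructokinase transcript did not overlap between viruses, with a log2 fold change of 0.34 (SE 0.0596, edgeR adjusted p = 0.000893). Eno3, a muscle enolase, rose by 0.52 (edgeR adjusted p = 0.00452) and Aldoc, an aldolase, fell by 0.69 (edgeR adjusted p = 0.0296) on the log2 scale. The calls of Pkm, Eno3 and Aldoc were lost, among other settings, without the block and without either Cre library, and that of Pfkp without the set 1 Cre library (edgeR adjusted p = 0.0566).

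Genes of glucose entry and of the mitochondria were mostly not called. The glucose transporter Slc2a1 (GLUT1) had a log2 fold change of -0.10 (edgeR adjusted p = 0.302) and hexokinase 2 (Hk2) of -0.02 (edgeR adjusted p = 0.874). Of 17 genes of glucose entry and its control, Pfkfb4 rose by 0.80 and the glycogen synthase Gys1 fell by 0.40 on the log2 scale. None of 75 tested nuclear genes of the respiratory chain was called, with log2 fold changes between -0.15 and 0.23, and none of 13 mitochondrially encoded genes or of 7 pentose phosphate genes was called. The shares in the citrate cycle, NADH shuttle and glucose entry lists were near or below the 12.6% of all genes called. Of 18 citrate cycle genes 2 were higher, Pcx (pyruvate carboxylase) by 0.55 and Idh2 by 0.24, and of 10 genes of the NADH shuttles only Got1 was called, lower by 0.25. Of 10 NAD synthesis genes, Nmnat2 was higher and Nmnat3 lower. Of 22 regulators and targets of the hypoxia-inducible factor (HIF), 6 were higher and none lower, against 6.47% of all genes higher and 6.08% lower, with a median log2 fold change of 0.09. Egln3 measured 4.97 and 5.84 CPM in GFP libraries and 11.6 and 10.7 CPM in Cre libraries. This prolyl hydroxylase gene was the largest change of the HIF list, with a log2 fold change of 1.07 (SE 0.121, edgeR adjusted p = 1.21e-05). Ndufa4l2 rose by 0.77, Car9 (carbonic anhydrase 9) by 0.67 and Adm (adrenomedullin) by 0.57, while Hif1a itself had a log2 fold change of 0.12 (edgeR adjusted p = 0.171) and Vegfa of -0.09 (edgeR adjusted p = 0.374). In the fit over 12 libraries 4 of the 22 were higher in Ldha f/f cells. In Nampt f/f cells 8 were higher and 2 lower, and none was called in Nfkbiz f/f cells. Over all genes 9.44%, 17.3% and 1.53% were called in these lines. The test of the difference called no member against either line.

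**Figure D2:**
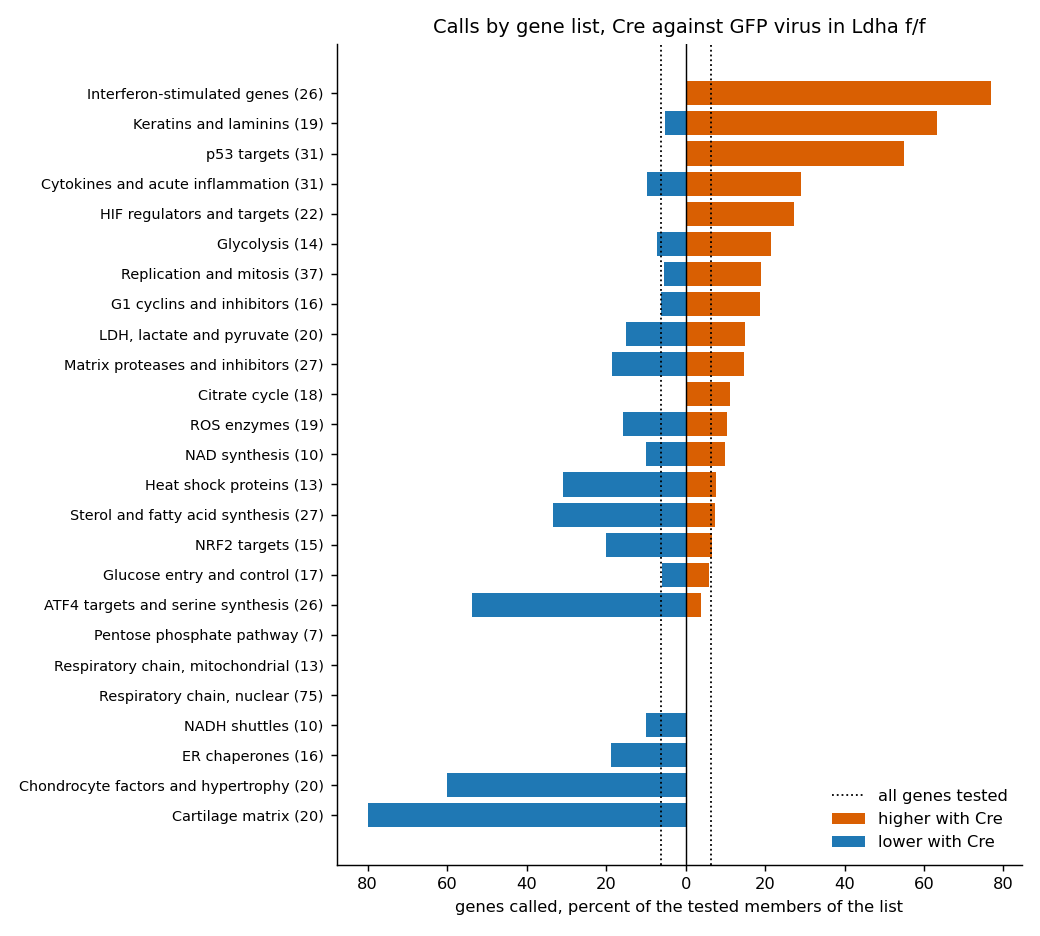
Percent of the tested members of each of 25 gene lists called higher (to the right) or lower (to the left) with Cre virus in Ldha f/f cells, with the number of tested members in parentheses. The dotted lines mark the shares over all genes tested, 6.47% higher and 6.08% lower. Interferon-stimulated genes, keratins and laminins and p53 targets reach furthest to the right, and cartilage matrix, chondrocyte factors and ATF4 targets furthest to the left.

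Most cartilage matrix genes fell with Cre. Of 20 cartilage matrix genes 16 were lower and none higher, with a median log2 fold change of -0.47, and 12 of 20 chondrocyte factors and genes of hypertrophy were lower, with a median of -0.31. The background share of lower genes was 6.08%. Col2a1 was at 54145 and 55424 CPM with GFP virus and at 39227 and 39792 CPM with Cre virus. Type II collagen, the main collagen of cartilage, fell, with a log2 fold change of -0.47 (SE 0.0437, edgeR adjusted p = 1.24e-06). Levels of Acan were 6986 and 6247 CPM in the GFP libraries and 4332 and 4174 CPM in the Cre libraries. Aggrecan, the main proteoglycan, fell in both sets, with a log2 fold change of -0.64 (SE 0.0546, edgeR adjusted p = 5.15e-07). Hapln1 measured 774 and 751 CPM in GFP libraries and 479 and 477 CPM in Cre libraries. The link protein that holds aggrecan to hyaluronan was lower in both Cre libraries, with a log2 fold change of -0.67 (SE 0.0584, edgeR adjusted p = 5.73e-07). Ucma, a matrix protein of the upper growth zone, and Cnmd, which encodes chondromodulin, fell by 0.64 and 0.56 on the log2 scale. Matn3, Matn4, Fmod and Cilp did not pass the test. In the fit over 12 libraries 16 of the 20 cartilage matrix genes were lower in Ldha f/f cells and 17 in Nampt f/f cells, with medians of -0.46 and -0.54, and none was called in Nfkbiz f/f cells, with a median of -0.14. The test of the difference called none of the 20 against Nampt f/f cells and 5, all lower, against Nfkbiz f/f cells, where the shares over all genes were 0.0647% and 1.87%.

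Factors of the chondrocyte programme were lower as well. Sox9 was at 648 and 625 CPM with GFP virus and at 489.8 and 529.5 CPM with Cre virus. This master transcription factor of chondrocytes was lower in both Cre libraries, with a log2 fold change of -0.32 (SE 0.0608, edgeR adjusted p = 0.00149), a call that was lost without the block (edgeR adjusted p = 0.0589), without the set 1 GFP library (0.0535) and without the set 1 Cre library (0.0886). Its partners Sox5 and Sox6 fell by 0.39 and 0.45 on the log2 scale. Levels of Col10a1 were 624 and 525 CPM in the GFP libraries and 355 and 323 CPM in the Cre libraries. Type X collagen, a mark of hypertrophic chondrocytes, fell without overlap, with a log2 fold change of -0.76 (SE 0.0554, edgeR adjusted p = 7.21e-08). Fgfr3 measured 470.0 and 489.8 CPM in GFP libraries and 303 and 317 CPM in Cre libraries. The receptor that restrains growth plate proliferation lay lower in both Cre libraries, with a log2 fold change of -0.63 (SE 0.0544, edgeR adjusted p = 5.51e-07). Panx3, a channel of hypertrophic chondrocytes, fell by 0.78, Runx2 by 0.29 and Spp1 (osteopontin) by 0.33 on the log2 scale. Ihh had a log2 fold change of -0.22 (edgeR adjusted p = 0.599).

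Levels of cell type markers are given beside these values. They were TMM-scaled over the 14 libraries without IL-1b or FX11, so they differ slightly from the levels above. The 7 chondrocyte markers include Col2a1, Acan, Hapln1 and Sox9, so their sum repeats falls described above. Fewer chondrocytes and less of each transcript per cell cannot be told apart from it. The summed level of 7 chondrocyte markers was 62380 to 64090 CPM with GFP virus and 45120 to 45710 with Cre virus, against 77950 to 81020 in the 2 wild-type libraries without virus. All 7 were called lower, where 6.08% of all genes were. Col2a1 alone made up most of the sum, with 51368 and 53587 CPM with GFP and 37756 and 38506 with Cre. The 10 markers of fibroblasts and perichondrium summed to 6214 to 6465 CPM with GFP and 5495 to 5716 with Cre, and 5 of them were lower, against the same 6.08%. Macrophage markers summed to 19.1 to 20.2 CPM with GFP and 18.1 to 18.4 with Cre, with none called. The part of cell composition in the fall of the cartilage genes was not tested.

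Matrix proteases showed no common direction, with 4 higher and 5 lower of 27 tested, against 6.47% and 6.08% of all genes, and a median log2 fold change of 0.01. Mmp13 was at 49.6 and 48.5 CPM with GFP virus and at 34.2 and 32.6 CPM with Cre virus. Collagenase 3, which cleaves type II collagen, fell, with a log2 fold change of -0.55 (SE 0.0630, edgeR adjusted p = 1.21e-05). The aggrecanase Adamts5 fell by 0.36 (edgeR adjusted p = 0.0112), while Adamts4 had a log2 fold change of 0.40 (edgeR adjusted p = 0.180). Levels of Timp3 were 1855 and 1572 CPM in the GFP libraries and 2536 and 2379 CPM in the Cre libraries. This inhibitor of metalloproteinases and aggrecanases was higher in both Cre libraries, with a log2 fold change of 0.52 (SE 0.0568, edgeR adjusted p = 7.43e-06). Stromelysin (Mmp3) stayed between 0.555 and 1.25 CPM in all 4 libraries without IL-1b, with a log2 fold change of -0.41 (edgeR adjusted p = 0.405).

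Most interferon-stimulated genes rose with Cre. Of 26 tested 20 were higher and none lower, with a median log2 fold change of 1.22, where 6.47% of all genes were higher. Type I interferon acts through STAT2 and IRF9, which bind the interferon-stimulated response element (ISRE) in the promoters of its target genes. Stat2 measured 18.8 and 16.6 CPM in GFP libraries and 33.4 and 29.7 CPM in Cre libraries. This transcription factor did not overlap between viruses, with a log2 fold change of 0.83 (SE 0.0893, edgeR adjusted p = 6.51e-06). Irf9 was at 14.7 and 12.7 CPM with GFP virus and at 26.3 and 24.4 CPM with Cre virus. Its DNA-binding partner was likewise higher, with a log2 fold change of 0.89 (SE 0.0996, edgeR adjusted p = 1.07e-05). Levels of Bst2 were 12.5 and 13.9 CPM in the GFP libraries and 29.9 and 40.4 CPM in the Cre libraries. Tetherin, which holds enveloped virus at the cell surface, rose in both sets, with a log2 fold change of 1.39 (SE 0.0972, edgeR adjusted p = 4.30e-08). Ifit1 measured 2.60 and 1.88 CPM in GFP libraries and 9.31 and 9.44 CPM in Cre libraries. This RNA-binding antiviral protein gene rose from low counts, with a log2 fold change of 2.06 (SE 0.227, edgeR adjusted p = 8.97e-06). Isg15 rose by 1.73, Oasl2 by 1.76, Ifi44 by 1.97 and Irf7 by 1.19 on the log2 scale, while Ifit2 had a log2 fold change of -0.05 and Dhx58 of 0.22, with neither called. Without the set 1 Cre library 11 of the 26 genes were called and under the other alternatives 15 to 21. None of the macrophage markers was called, and their summed level with Cre is given above. The 2 wild-type libraries without virus held 6.49 and 44.6 CPM of Bst2 and 13.1 and 31.1 CPM of Stat2. These 2 libraries also differed in marker sums, 84.6 to 204 CPM for macrophages and 18.8 to 318 for adipocytes. Whether their spread in Bst2 and Stat2 came with cell content was not tested.

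The promoters of these genes are shown because the members moved together and the element is defined by its letters. The ISRE was searched as GAAANNGAAA on both strands in RefSeq windows of 250 bases before to 50 bases after each gene's start (GRCm38.p6). It was found in 11 of the 19 listed interferon-stimulated genes with a window (57.9%) and in 1079 of all 27025 genes with one (3.99%). It was in 9 of 15 called genes and in 2 of 4 tested genes that were not called. The list was chosen as genes of this pathway, so its share describes the list and not the change with Cre. The stretches around the match in 3 named genes follow on the strand of the gene, with the matched letters in capitals, read on the opposite strand for Ifit1 and Stat2.
Bst2, chr8:71537557-71537632, reverse strand: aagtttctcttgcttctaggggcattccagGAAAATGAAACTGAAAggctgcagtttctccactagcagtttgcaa
Ifit1, chr19:34640755-34640843, forward strand: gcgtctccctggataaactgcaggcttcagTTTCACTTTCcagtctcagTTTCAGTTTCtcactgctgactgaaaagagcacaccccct
Stat2, chr10:128270248-128270315, forward strand: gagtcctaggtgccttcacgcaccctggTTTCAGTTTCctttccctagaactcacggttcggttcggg
Bst2 and Ifit1 held 2 matches each and Stat2 held 1. Irf9 had no match, which says only that these letters are not in its window.

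**Figure D3:**
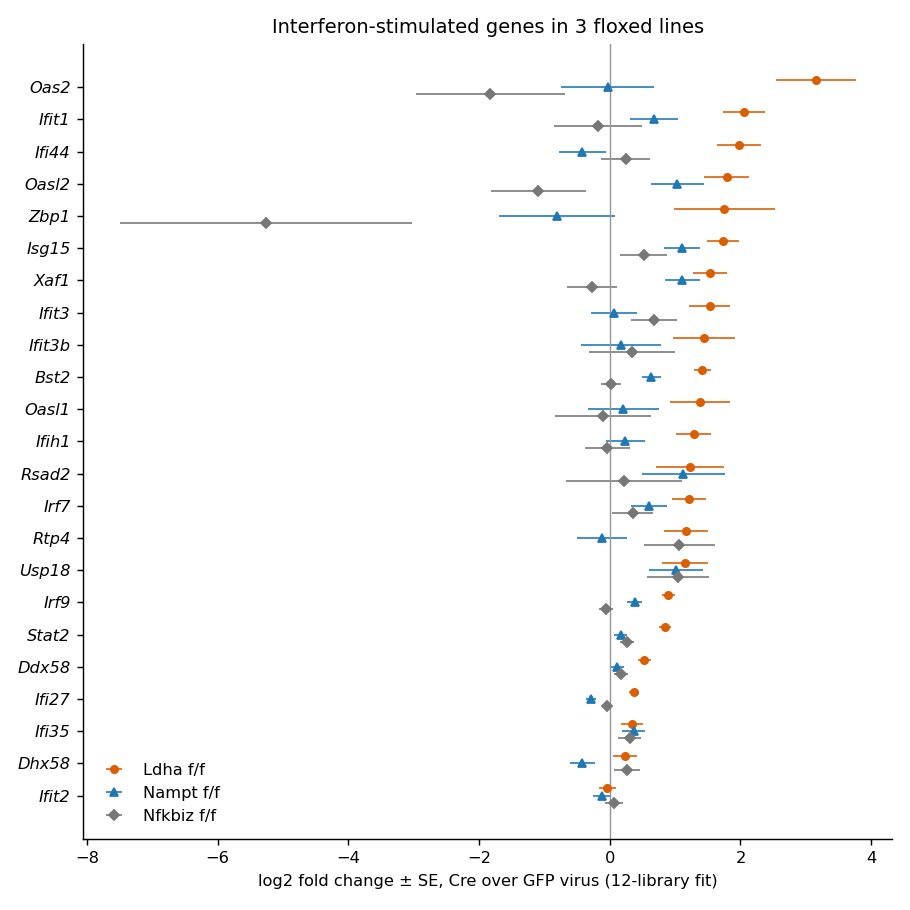
Log2 fold change of Cre over GFP virus with its standard error for 23 of the 24 tested interferon-stimulated genes in the 3 floxed lines, from the fit over 12 libraries without IL-1b, ordered by the value in Ldha f/f cells. Ldha f/f values lie to the right of 0 for all plotted genes but Ifit2. The median over the 24 was 1.26 against 0.19 in Nampt f/f and 0.11 in Nfkbiz f/f cells, and the widest bars belong to genes with few counts such as Zbp1 and Oas2.

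In the fit over 12 libraries 16 of the 24 interferon-stimulated genes tested were higher in Ldha f/f cells, against 4 higher and 1 lower in Nampt f/f cells and none in Nfkbiz f/f cells, where the shares over all genes called were 9.44%, 17.3% and 1.53%. The test of the difference itself called fewer. Against Nampt f/f cells it called 1 of the 24, Ifi27 (difference 0.66, edgeR adjusted p = 0.0436), whose call was lost without the block. Bst2 differed by 0.78 (edgeR adjusted p = 0.453), Stat2 by 0.67 (0.191) and Ifit1 by 1.37 (0.757), all higher in Ldha f/f cells and none called. Against Nfkbiz f/f cells 3 were called, Bst2 by 1.39 (edgeR adjusted p = 0.00173), Irf9 by 0.95 (0.00381) and Stat2 by 0.58 (0.0490). All Nfkbiz f/f libraries belong to set 2.

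Of 31 cytokine and acute inflammation genes 9 were higher and 3 lower, the latter near the 6.08% of all genes that were lower and the former against 6.47% higher, with a median log2 fold change of 0.45. Ptges was at 3.05 and 2.33 CPM with GFP virus and at 7.98 and 6.62 CPM with Cre virus. Prostaglandin E synthase rose, with a log2 fold change of 1.43 (SE 0.132, edgeR adjusted p = 1.24e-06). Ptgs2 (cyclooxygenase 2), the enzyme before it, fell by 0.57 (edgeR adjusted p = 3.64e-05). Its log2 fold changes in Nampt f/f and Nfkbiz f/f cells were -1.01 and -0.91, both called. Levels of Lif were 6.18 and 6.00 CPM in the GFP libraries and 11.5 and 12.3 CPM in the Cre libraries. This cytokine of the interleukin 6 family rose, with a log2 fold change of 0.96 (SE 0.0993, edgeR adjusted p = 4.57e-06). The chemokine genes Ccl2, Cxcl16 and Cx3cl1 rose by 0.73, 0.84 and 0.50 on the log2 scale, and Cxcl12 fell by 0.51. Nfkbia, which encodes the inhibitor IkBa, rose by 0.59 (edgeR adjusted p = 0.000253). Il6 stayed between 0.182 and 0.584 CPM in the 4 libraries, with a log2 fold change of -0.26 (edgeR adjusted p = 0.808), and Tnf, Nos2, Saa1 and Saa2 were at most 0.207 CPM throughout. In the fit over 12 libraries, with 21 of these genes tested, 6 were higher and 3 lower in Ldha f/f cells. In Nampt f/f cells 7 were higher and 4 lower, and in Nfkbiz f/f cells 4 were lower. Over all genes 9.44%, 17.3% and 1.53% were called in these lines. The test of the difference called none against Nampt f/f cells, and 5 higher and 1 lower against Nfkbiz f/f cells (0.0647% and 1.87% of all genes).

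Many targets of p53 rose with Cre. Of 31 tested 17 were higher and none lower, against 6.47% of all genes higher, with a median log2 fold change of 0.25, and the count ranged from 9 to 20 under the alternatives, lowest without the set 2 Cre library. Perp measured 15.5 and 22.6 CPM in GFP libraries and 35.2 and 42.2 CPM in Cre libraries. This membrane protein gene, which p53 induces and which epithelia use in desmosomes, had the smallest p of the list, with a log2 fold change of 1.04 (SE 0.0992, edgeR adjusted p = 1.78e-06). Ccng1 was at 380.2 and 338 CPM with GFP virus and at 529 and 496 CPM with Cre virus. Cyclin G1 was higher, with a log2 fold change of 0.52 (SE 0.0547, edgeR adjusted p = 6.07e-06). Levels of Cdkn1a were 542 and 469.5 CPM in the GFP libraries and 669 and 673 CPM in the Cre libraries. The inhibitor p21 was higher in both Cre libraries, with a log2 fold change of 0.41 (SE 0.0679, edgeR adjusted p = 0.000533). Mdm2, the ubiquitin ligase that p53 induces and that degrades it, rose by 0.37, Trp53inp1 by 0.54, Btg2 by 0.56 and Pmaip1 (NOXA) by 1.27 on the log2 scale. Bax, Bbc3 and Gdf15 had log2 fold changes of 0.21, 0.19 and 0.20 and were not called. In the fit over 12 libraries, p53 targets were also higher in Nampt f/f cells (14 higher and 1 lower of 31) and 3 were higher in Nfkbiz f/f cells, where 17.3% and 1.53% of all genes were called, and no member was called by the test of the difference from either line. Among 16 G1 cyclins and inhibitors 3 were higher and 1 lower, the latter a share near the 6.08% of all genes. Ccnd1 measured 179 and 185 CPM in GFP libraries and 371 and 387 CPM in Cre libraries. Cyclin D1, which drives entry into the cycle, rose without overlap, with a log2 fold change of 1.06 (SE 0.0529, edgeR adjusted p = 5.63e-10). Cdk2 rose by 0.32 and Ccnd2, cyclin D2, fell by 0.22 on the log2 scale.

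Keratins and laminins, genes of epithelia and their basement membrane, were among the steepest rises. Of 19 tested 12 were higher and 1 lower (Lamb2), against 6.47% and 6.08% of all genes, with a median log2 fold change of 0.73, and 8 to 13 were called under the alternatives. Krt7 was at 2.87 and 3.09 CPM with GFP virus and at 22.8 and 24.0 CPM with Cre virus. Keratin 7, of simple epithelia, rose, with a log2 fold change of 2.98 (SE 0.114, edgeR adjusted p = 1.74e-11). Levels of Krt18 were 2.16 and 1.67 CPM in the GFP libraries and 13.6 and 10.5 CPM in the Cre libraries. Keratin 18 rose, with a log2 fold change of 2.65 (SE 0.138, edgeR adjusted p = 8.97e-10). Krt8 measured 1.27 and 0.876 CPM in GFP libraries and 6.46 and 6.29 CPM in Cre libraries. Its partner keratin 8 rose as well, with a log2 fold change of 2.54 (SE 0.193, edgeR adjusted p = 1.25e-07). Krt19 rose by 2.85, and the laminin chains Lama5 and Lamb3 by 0.71 and 0.73 on the log2 scale. In the fit over 12 libraries 8 of 18 keratin and laminin genes were higher in Ldha f/f and 11 in Nampt f/f cells, where 2 were lower. Medians were 0.73 and 1.01, against -0.04 in Nfkbiz f/f cells, where none was called. Over all genes 9.44%, 17.3% and 1.53% were called in these lines. The test of the difference called none against Nampt f/f and 6, all higher, against Nfkbiz f/f cells (0.0647% and 1.87% of all genes). The epithelial markers Cdh1, Krt5 and Dsp were called higher and Epcam and Trp63 were not, and Krt14 was at or under 3 counts in both GFP libraries. Their 6 summed levels were 4.48 to 5.08 CPM with GFP virus, 20.2 to 24.0 with Cre virus and 2.79 to 4.45 in wild-type libraries without virus. The same sums were 6.36 to 7.01 CPM with GFP and 31.7 to 35.9 with Cre virus in Nampt f/f cells. In Nfkbiz f/f cells they were 4.47 to 5.18 and 8.13 to 8.78 CPM. Of the endothelial markers Kdr rose by 2.79 while Pecam1 had a log2 fold change of -0.50 and Cdh5 of 1.32, neither called. Whether these transcripts came from a few cells of another type or from chondrocytes cannot be told apart in bulk RNA.

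Other genes with a large or well supported rise belonged to several kinds and to no common list. Wnt7a (chromosome 6, 91363981 to 91411363 on the reverse strand), a Wnt ligand of epithelia and the limb, held 3 and 2 counts in the GFP libraries and 167 and 113 in the Cre libraries, a ratio of 64.2 per total count of the libraries, before TMM scaling, with an exact 95% interval of 27.2 to 199 for counting error only. Hoxd9 was at 0.414 and 0.50 CPM with GFP virus and at 6.64 and 11.1 CPM with Cre virus. This homeobox gene of the limb and trunk rose, with a log2 fold change of 4.22 (SE 0.223, edgeR adjusted p = 1.06e-09). Levels of Axin2 were 8.07 and 7.38 CPM in the GFP libraries and 29.1 and 28.1 CPM in the Cre libraries. The Wnt target and inhibitor Axin2 was higher in both Cre libraries, with a log2 fold change of 1.88 (SE 0.0970, edgeR adjusted p = 7.82e-10). Tinagl1 measured 56.6 and 60.4 CPM in GFP libraries and 167 and 171 CPM in Cre libraries. This matricellular protein gene had the smallest p among higher genes, with a log2 fold change of 1.53 (SE 0.0565, edgeR adjusted p = 1.27e-11). Sncg (gamma-synuclein) rose by 2.13, Ano1, a calcium-activated chloride channel, by 2.88 and Col7a1, the anchoring fibril collagen, by 2.83 on the log2 scale.

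Several of the largest falls were in genes that were high with GFP virus in every floxed line. Tmem130 was at 228 and 269.9 CPM with GFP virus and at 14.6 and 13.7 CPM with Cre virus. Tmem130 (chromosome 5, 144735915 to 144761649 on the reverse strand), a membrane protein gene, lay 17.4-fold lower with Cre, with a log2 fold change of -4.12 (SE 0.0865, edgeR adjusted p = 3.25e-15). Levels of Hspa1a were 47.2 and 64.7 CPM in the GFP libraries and 3.31 and 4.21 CPM in the Cre libraries. The inducible heat shock protein 70 gene was lower in both Cre libraries, with a log2 fold change of -3.88 (SE 0.0972, edgeR adjusted p = 2.85e-14). Hspa1b measured 100.3 and 113 CPM in GFP libraries and 11.5 and 14.2 CPM in Cre libraries. Its copy followed, with a log2 fold change of -3.06 (SE 0.0755, edgeR adjusted p = 2.85e-14). Htra2 was at 472 and 833 CPM with GFP virus and at 90.8 and 105 CPM with Cre virus. The mitochondrial protease gene Htra2 was lower and varied between the GFP libraries, with a log2 fold change of -2.69 (SE 0.120, edgeR adjusted p = 1.35e-10). Levels of Zan were 40.7 and 50.5 CPM in the GFP libraries and 6.70 and 4.72 CPM in the Cre libraries. Zonadhesin, a sperm protein, fell, with a log2 fold change of -2.94 (SE 0.13, edgeR adjusted p = 1.28e-10). Fem1a, an adaptor of a ubiquitin ligase, fell by 2.12, Bcas1 by 2.99, Nat8f5 by 3.25 and Nmnat3, a mitochondrial NAD synthetic enzyme, by 1.81 on the log2 scale.

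The same genes fell with Cre in the other lines, and the wild-type libraries without virus were low in several. The 2 uninfected libraries held 0.115 and 0.177 CPM of Tmem130, 0.259 and 0.318 of Zan, 40.6 and 19.2 of Htra2 and 58.8 and 49.8 of Fem1a. In Nfkbiz f/f cells Tmem130 was at 390.4 and 480.0 CPM with GFP and 0.176 and 0.0888 with Cre, where 3 counts give 0.128 and 0.133 CPM, so that its fitted log2 fold change there rests on few counts. In Nampt f/f cells it was at 491 and 583 CPM with GFP and 25.4 and 24.2 with Cre. Htra2 ended at 20.7 and 19.5 CPM with Cre in Nfkbiz f/f, 87.4 and 102 in Ldha f/f and 124 and 164 in Nampt f/f cells. The fall of Tmem130, Zan, Bcas1 and Htra2 was smaller in Ldha f/f than in Nfkbiz f/f cells by the test of the difference, with edgeR adjusted p-values from 1.99e-09 to 8.80e-05, and none of the 4 was called as different from Nampt f/f cells (0.855 to 0.961). Fem1a, Hspa1a, Hspa1b and Nmnat3 were called as different from neither line. Genotype and virus both separate the wild-type libraries from the rest and cannot be told apart.

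**Figure D4:**
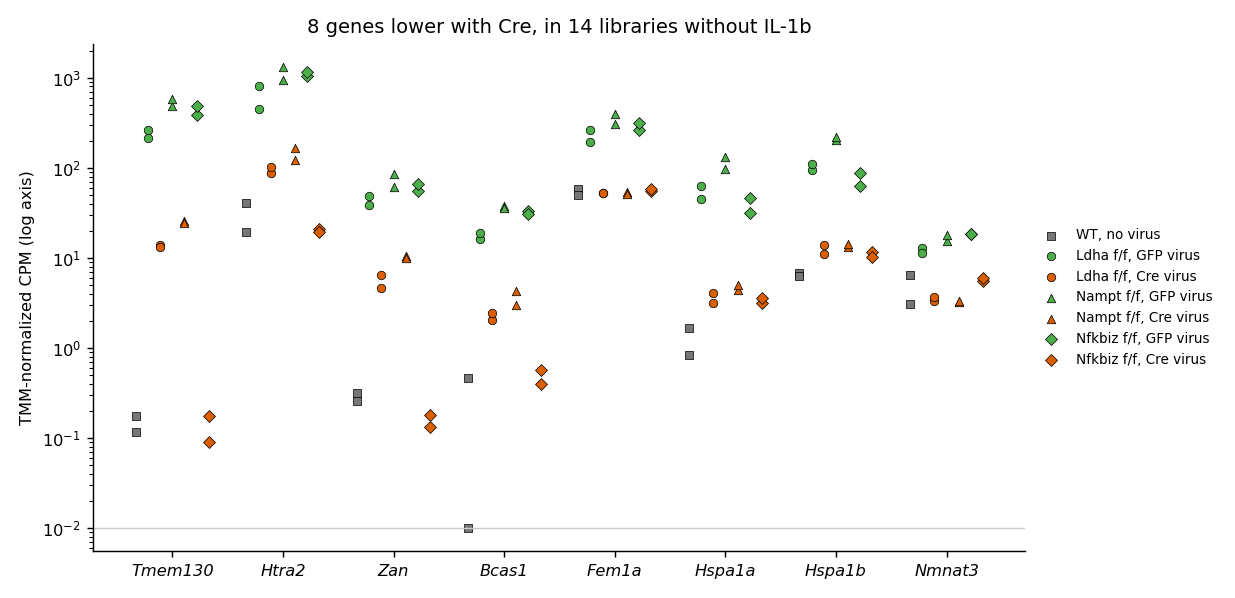
TMM-normalized CPM on a log axis for 8 genes that were lower with Cre virus, in 14 libraries without IL-1b, with values under 0.01 drawn at 0.01. Squares are wild-type cells without virus, circles Ldha f/f, triangles Nampt f/f and diamonds Nfkbiz f/f, in green for GFP and orange for Cre virus. In each line the green points lie above the orange ones, and the orange points of Tmem130, Zan and Bcas1 lie lowest in Nfkbiz f/f cells.

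Hspa1a and Hspa1b are near-identical copies. Only uniquely aligned reads were counted, so reads that match both may be missing and their separate values are uncertain. The same promoter letters stand before both, and they are shown because heat shock factor binds such elements. The search used GAANNTTC, which reads the same on both strands, and found it in 7 of 9 listed heat shock genes with a window (77.8%) and in 2442 of 27025 genes (9.04%). It was in 3 of 3 called heat shock genes and in 4 of 6 tested ones that were not called.
Hspa1a, chr17:34972223-34972290, reverse strand: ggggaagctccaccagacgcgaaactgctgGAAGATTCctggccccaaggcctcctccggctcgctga
The match is in capitals, on the strand of the gene. Of 13 heat shock genes tested 4 were lower (Hspa1a, Hspa1b, Hspa8 and Hsph1), against 6.08% of all genes, and 1 was higher (Cryab, by 0.28), a share near the 6.47% of all genes, with a median log2 fold change of -0.10. Hspa8, the constitutive form, fell by 0.19, and Hsp90aa1 and Hsp90ab1 had log2 fold changes of 0.04 and 0.00.

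A different gene stood out for 1 library. Olfr287 measured 0.0296 and 16.6 CPM in GFP libraries and 0.0607 and 0.185 CPM in Cre libraries. The olfactory receptor gene was high in the set 2 GFP library alone, so its GFP libraries spanned both the lowest and the highest value, and its log2 fold change of -5.63 rests on that library. The call was lost with DESeq2 (adjusted p = 0.205), without the block (edgeR adjusted p = 0.123) and without the set 2 Cre library, and no value could be had without the set 2 GFP library.

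Many genes of the integrated stress response fell with Cre. ATF4, a transcription factor, drives amino acid uptake and synthesis. Of 26 targets and serine synthesis genes 14 were lower and 1 higher (Ddit4, by 0.30), against 6.08% and 6.47% of all genes, with a median log2 fold change of -0.22, and 7 to 19 were called under the alternatives, fewest without either Cre library. Atf4 itself fell by 0.31 (edgeR adjusted p = 0.00145). Cth was at 44.2 and 44.7 CPM with GFP virus and at 31.3 and 27.3 CPM with Cre virus. Cystathionine gamma-lyase, which makes cysteine, fell, with a log2 fold change of -0.60 (SE 0.0817, edgeR adjusted p = 8.39e-05). Levels of Ppp1r15a were 228 and 209.8 CPM in the GFP libraries and 159.6 and 157 CPM in the Cre libraries. The phosphatase subunit GADD34 fell, with a log2 fold change of -0.47 (SE 0.0572, edgeR adjusted p = 2.87e-05). Slc7a5, Slc7a1 and Trib3 fell by 0.35, 0.31 and 0.31 on the log2 scale, while Phgdh and Psat1 of serine synthesis had log2 fold changes of -0.06 and 0.10 and were not called. In Nampt f/f cells 15 of the 26 were lower and in Nfkbiz f/f cells none was called, where 17.3% and 1.53% of all genes were called, and no member was called by the test of the difference from either line.

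Across all genes the Cre effect in Ldha f/f cells was set beside that in the other 2 lines. In the fit over 12 libraries, with 15460 genes tested, 1459 were called in Ldha f/f (9.44%), 2682 in Nampt f/f (17.3%) and 236 in Nfkbiz f/f cells (1.53%), and no library was shared by these comparisons. Of the 781 genes higher in Ldha f/f cells 772 (98.9%) were higher in Nampt f/f cells in sign and 658 were also called there, and of the 678 lower genes 669 (98.7%) were lower and 543 called. Genes not called in Ldha f/f cells shared their sign with Nampt f/f cells in 66.3% of cases when higher and 69.9% when lower. In Nfkbiz f/f cells 605 (77.5%) of the higher and 502 (74.0%) of the lower genes shared the sign, against 57.6% and 56.0% of genes not called, and 69 and 27 were called. The median log2 fold change of the higher genes was 0.60 in Ldha f/f, 0.66 in Nampt f/f and 0.17 in Nfkbiz f/f cells, and of the lower genes -0.40, -0.43 and -0.07. Since the genes were chosen by their call in Ldha f/f cells, the Ldha f/f medians are a description.

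Set against Nampt f/f cells, the test of the difference in the Ldha f/f Cre effect called 10 genes, 0.0647% of those tested, with 887 at an unadjusted p under 0.05. They include the deleted genes Ldha and Nampt and the pseudogenes Ldha-ps2 and Gm13549. The other 6 were Mmp13, Ibsp, Cyfip2, Ifi27, Abhd2 and Abi3bp. Mmp13 fell by 0.55 in Ldha f/f cells and by 1.36 in Nampt f/f cells, a difference of 0.81 (edgeR adjusted p = 0.00391) that was lost without the set 1 Ldha f/f GFP or Cre library or without either set 2 Nampt f/f library (adjusted p from 0.0548 to 0.0970). The other 5 calls were lost without the block and when any 1 of the 8 Ldha f/f and Nampt f/f libraries was left out.

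Set against Nfkbiz f/f cells, the Ldha f/f Cre effect differed for 289 genes, 1.87% of those tested, of which 127 were higher and 162 lower. Within library set 2 alone 19 were called. Nfkbiz had a log2 fold change of -0.89 in Nfkbiz f/f cells (edgeR adjusted p = 0.00267) and of -0.50 in Nampt f/f cells (0.00850). That of Nampt in Nampt f/f cells was -3.07. With GFP virus, Nfkbiz f/f cells held 97.3 and 103 CPM of Col10a1 and Ldha f/f cells 592 and 507, in the scaling over 14 libraries. The 10 markers of fibroblasts and perichondrium summed to 1460 to 1626 CPM in Nfkbiz f/f and 6214 to 6465 in Ldha f/f cells. Of the genes described above, Krt7 differed by 3.46 (edgeR adjusted p = 8.80e-05), Hoxd9 by 4.39 (0.000135), Ccnd1 by 0.62 (0.00437), Hapln1 by -0.78 (0.000419) and Col10a1 by -0.85 (0.000301). Ldhb and Slc16a3 were called as different from neither line, with differences from Nampt f/f cells of -0.16 and -0.07 and from Nfkbiz f/f cells of 0.06 and 0.15.

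**Figure D5:**
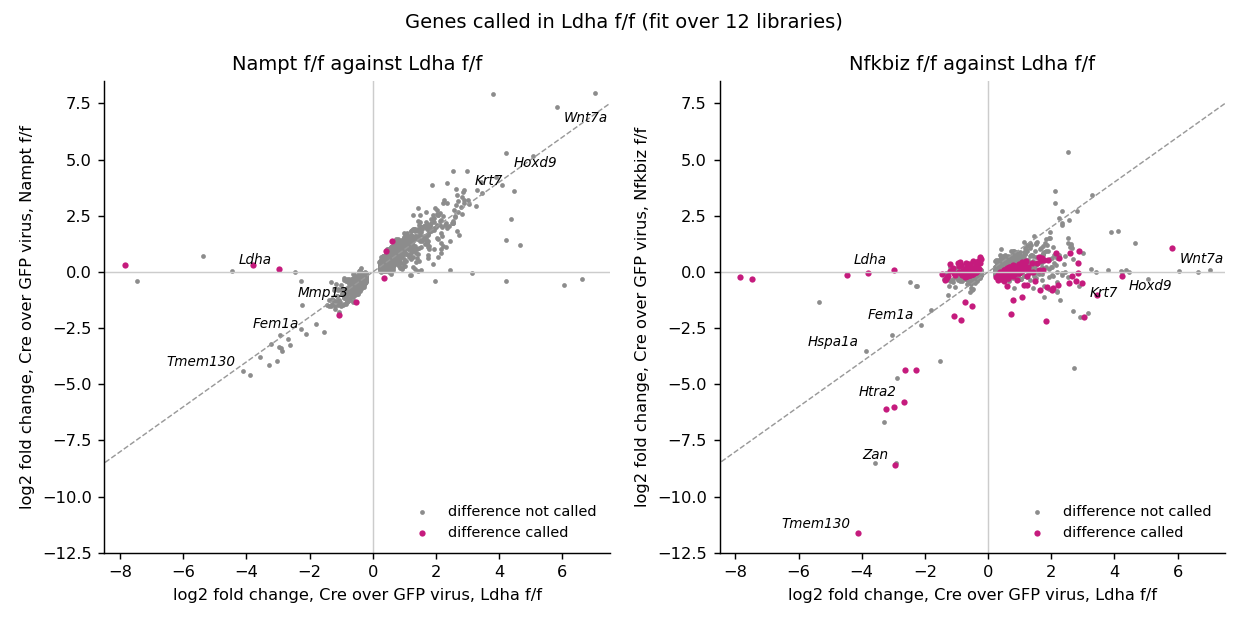
Log2 fold change of Cre over GFP virus in Nampt f/f (left) and Nfkbiz f/f cells (right) against that in Ldha f/f cells, for the 1459 genes called in Ldha f/f cells in the fit over 12 libraries. Coloured points are genes whose difference between the lines was called and the dashed line marks equal changes. On the left the points follow the dashed line apart from Ldha and a few others, and on the right most lie near 0 on the vertical axis while Tmem130, Zan and Htra2 lie far below the dashed line.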

How the data were processed

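Total RNA of primary sternal chondrocytes in 24-well plates was depleted of ribosomal RNA and sequenced on an Illumina HiSeq. The authors aligned reads with STAR (version 2.0.4b in the submitters' processing notes) to GRCm38 and counted unambiguous, uniquely aligned reads per Ensembl gene with featureCounts (1.45 in the same notes), while the methods of the study name other versions of both. The deposited files give raw counts, and the authors' CPM and RPKM values stand beside them. The deposited CPM was the count divided by the library total, and neither CPM nor RPKM entered a test. Of 41388 genes, 40254 were named from GENCODE M21, and 355 ribosomal RNA genes were left out.

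Genes above 1 CPM in 1 library or more were tested with edgeR 4.0.16 (R 4.3.3), with TMM scaling, quasi-likelihood tests, Benjamini-Hochberg adjustment over all genes tested and a threshold of 0.05. The Cre effect used the 8 Ldha f/f libraries, including 4 with IL-1b that shared the estimate of the spread, and the differences between lines used 12 libraries without IL-1b, with library set as a term. Levels compared across lines, wild-type levels and marker sums were TMM-scaled over the 14 libraries without IL-1b or FX11. Libraries of the same set deviated together, with correlations of 0.408 to 0.648 over 10856 genes, so the set was kept as a block. Library totals were 15830658 to 39959888 counts over the 32 libraries, and counting intervals and floors cover counting error only. Scripts were tested on simulated data.

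Named genes were Ldha, Nampt and Nfkbiz, the 8 called genes with the largest change and the 8 with the smallest p in each direction at 5 CPM or more, up to 4 called members of each list with the smallest p, a fixed set of lactate, cartilage and p53 genes, and genes differing from both other lines. Gm13549 and list members outside this rule were named after their values were seen. A gene of the interferon list is counted there but is not reported here. The members and lists were chosen with earlier results of these data known. Alternatives were RLE scaling, other filters, DESeq2 1.42.0, voom with quality weights (limma 3.58.1), other sets of libraries, no block and leaving out each library.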

Additional observations from a re-analysis of the deposited data

Results flagged for a closer look

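The following differences between lines passed the test of the difference itself, for genes named in the report. They are log2 differences of the Cre effect in Ldha f/f cells minus that in the other line. The list against Nfkbiz f/f cells is not complete, and absence from it does not mean that a gene was not called. Against Nampt f/f cells they were -3.08 for Ldha, 3.00 for Nampt, -4.10 for Ldha-ps2, 0.81 for Mmp13, 1.32 for Ibsp (bone sialoprotein), -0.79 for Cyfip2, 0.66 for Ifi27, -0.52 for Abhd2 and 0.84 for Abi3bp. For Gm13549 the fitted difference was -8.15, which depends on the prior count because both Ldha f/f Cre libraries held 0 counts.

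Against Nfkbiz f/f cells the deleted genes differed by -3.07 (Ldha) and 0.98 (Nfkbiz), and the copy Ldha-ps2 by -3.76. Keratins were higher by 3.46 (Krt7), 3.05 (Krt8), 2.82 (Krt18) and 2.48 (Krt19), and Col7a1 by 2.86. Among 4 epithelial markers tested, Dsp (1.76) and Krt5 (4.46) were called higher, while Cdh1 (-1.47) and Epcam (-0.69) were not called. Among 4 endothelial markers Kdr (3.19) was called higher, while Pecam1 (-0.11), Tek (0.27) and Cdh5 (4.34) were not called. Other named genes were higher by 4.78 (Wnt7a), 4.39 (Hoxd9), 1.36 (Axin2), 1.97 (Ano1), 1.12 (Tinagl1), 0.998 (Lif), 0.62 (Ccnd1), 0.53 (Timp3) and 0.48 (Abhd2). Interferon-stimulated genes were higher by 1.39 (Bst2), 0.95 (Irf9) and 0.58 (Stat2). Lower values, with negative differences, were -0.85 (Col10a1), -0.78 (Hapln1), -0.77 (Panx3), -0.53 (Mmp13) and -0.48 (Matn1). The genes that were high with GFP virus fell less in Ldha f/f cells, by 7.52 (Tmem130), 5.65 (Zan), 3.10 (Htra2), 3.04 (Bcas1) and 2.87 (Nat8f5). All Nfkbiz f/f libraries belong to set 2, so line and set overlap in these differences. Nfkbiz f/f cells with GFP virus also began at other levels of several genes, as given above. Of 233 genes called in Ldha f/f cells with the sign of the difference, 227 had that sign in Nampt f/f cells. Among all genes called in Ldha f/f cells in the fit over 12 libraries, 98.9% of the higher and 98.7% of the lower shared their sign with Nampt f/f cells. The count of 227 is therefore not particular to these genes.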

How the results depend on the processing

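The Cre effect in Ldha f/f cells was called for 1994 genes and stayed within 1.5 times of that with RLE size factors (1991), filterByExpr (1924), no filter (2226), DESeq2 (1451), voom with quality weights (2523), the 4 libraries without IL-1b (2279) and 12 libraries (1459). Without the replicate block 877 genes were called, and leaving out each library gave 807 to 1506 calls. The log2 fold change of Ldha stayed between -2.99 and -2.96. The difference from Nampt f/f cells was called for 10 genes, and for 4 without the replicate block, 27 with voom, 16 with DESeq2, 4 with a replicate block for each line, 54 with 16 libraries (chosen after seeing the data) and 3 to 6 when each library was left out. The difference from Nfkbiz f/f cells was called for 289 genes, and for 129 without the replicate block, 439 with voom, 19 within set 2 and 78 to 491 when each library was left out. Of 658 values of 55 named genes under the alternatives, 624 kept their direction and their side of the threshold, 30 kept their direction but were no longer called, 4 became called (all Slc16a1) and none reversed. The cause was not tested. Depth limits genes of a few counts, such as Wnt7a with GFP virus, most.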

Other observations

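Of 27 tested genes of sterol and fatty acid synthesis and export, 9 were lower with Cre virus in Ldha f/f cells, against 6.08% of all genes, and 2 were higher, a share near the 6.47% of all genes, with a median log2 fold change of -0.16. The 2 higher genes were the cholesterol exporters Abca1, with a log2 fold change of 0.92 (edgeR adjusted p = 4.64e-07), and Abcg1, with 1.34 (edgeR adjusted p = 0.000115). Among the lower genes, Nsdhl of sterol synthesis had -0.58 (edgeR adjusted p = 0.00230), and the fatty acid enzymes Acaca and Scd1 had -0.46 and -0.38.

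Of 37 genes of replication and mitosis 7 were higher, against 6.47% of all genes, and 2 lower, a share near the 6.08% of all genes, with a median log2 fold change of 0.03. The replication genes Mcm5, Rrm2, Tyms and Rrm1 had log2 fold changes of 0.47, 0.40, 0.38 and 0.37. The 2 lower genes were Cenpf and Plk1, and the proliferation marker Mki67 had -0.05 (edgeR adjusted p = 0.667). Targets of NRF2, the factor of the antioxidant response, were 3 lower, against 6.08% of all genes, and 1 higher of 15, a share near the 6.47% of all genes, with Hmox1 at -0.33 and Gclm at -0.34 among the lower and the ferritin gene Fth1 at 0.18. Of 19 enzymes that remove or make reactive oxygen species, 12.6% being the share of all genes called, 2 were higher (Sod3 by 0.38 and Gpx1 by 0.22) and 3 lower (Gpx3, Sod2 and Prdx6, with -0.30, -0.22 and -0.20). Of 16 ER chaperone and stress genes 3 were lower, Herpud1, Hyou1 and Xbp1, against 6.08% of all genes.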
